A study of Mus musculus with 4 samples.

Results

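Egg coat and oocyte maturation genes, 10 in all, were followed in cultured female germline stem cells of C57BL/6 mice, labelled as kept for more than 20 passages. The genes were chosen by name for their roles in the oocyte, with earlier results of these data known. The number called among them is therefore no independent evidence. Their counts were read from the deposited transcript table, in which 32812 of 53291 features carried a gene symbol. They are Zp1, Zp2 and Zp3 (egg coat), Figla, Nobox and Sohlh1 (transcription), Oosp1 (secreted oocyte protein), Mos and Gpr3 (meiotic arrest) and H1foo (linker histone, now named H1f8). RNA-seq libraries came from cells after 4 h with spermidine, a polyamine studied as an inducer of autophagy, and from untreated control cells, with 2 libraries in each group. No source used here gives the dose. Nor do the labels tie each library to a culture of its own, so the spread behind each p-value may be technical.

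The egg coat, or zona pellucida, is a matrix of glycoproteins that the growing oocyte secretes around itself and that sperm bind and cross. In mouse oocytes the basic helix-loop-helix factor FIGLA is needed for expression of the zona genes, and NOBOX and SOHLH1 act early in follicle growth. The oocyte then rests in meiotic prophase, held there by cyclic AMP made downstream of the receptor GPR3, and after meiosis resumes the kinase MOS holds the egg at metaphase II. These genes are known as products of oocytes in growing follicles, whereas female germline stem cells are described as mitotic germ cells with markers such as Ddx4, Ifitm3 and Dppa3.

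The spermidine libraries held 787600 and 1718944 counts and the control libraries 7206176 and 7128901. A floor of 3 counts corresponds to 3.81 and 1.75 CPM, a count scaled to the library total, in the spermidine libraries and 0.416 and 0.421 CPM in the control libraries. The noncoding row AY036118, on chromosome 17, took 29.6% and 30.7% of spermidine counts (95% Clopper-Pearson intervals, exact, 29.5 to 29.7 and 30.6 to 30.8) and 1.68% and 1.64% of control counts (1.67 to 1.69 and 1.63 to 1.65). Intervals and floors cover counting error only. Of the germline stem cell markers, Ddx4 had 1 count, in spermidine replicate 1, on 434 bases of its own, while Ifitm3, a membrane protein of early germ cells, had 72 and 146 counts in the spermidine libraries and 49 and 132 in the controls. Dazl, an RNA-binding protein of germ cells, had 2 and 0 counts with spermidine and 0 and 1 in the controls. Of the 16 germline stem cell markers listed, Ifitm3, Etv5 and Tex19.1 were the 3 with more than 3 counts in every library.

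Only some of the 10 genes could be seen in the deposited table. Each row of the table is a RefSeq transcript, and rows that share every base with another row took no more than 0.0014% of a library's counts, so a gene was in effect counted on the bases that no other row covers. All bases of 5 genes were their own: Zp1 (1925 bases in 12 exons), Zp3 (1317 bases in 8 exons), Oosp1 (873 bases in 5 exons), Mos (1448 bases in 1 exon) and Gpr3 (2143 bases in 2 exons). The other 5 shared most of their exons with further rows. H1foo had 0 bases of its own, Zp2 had 42, Nobox 254, Sohlh1 530 over 3 rows and Figla 692 over 2 rows. Counts of 0 in H1foo and Zp2 are therefore no measurement of their transcripts, and that in Nobox speaks only for its 254 own bases.

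**Figure D1:**
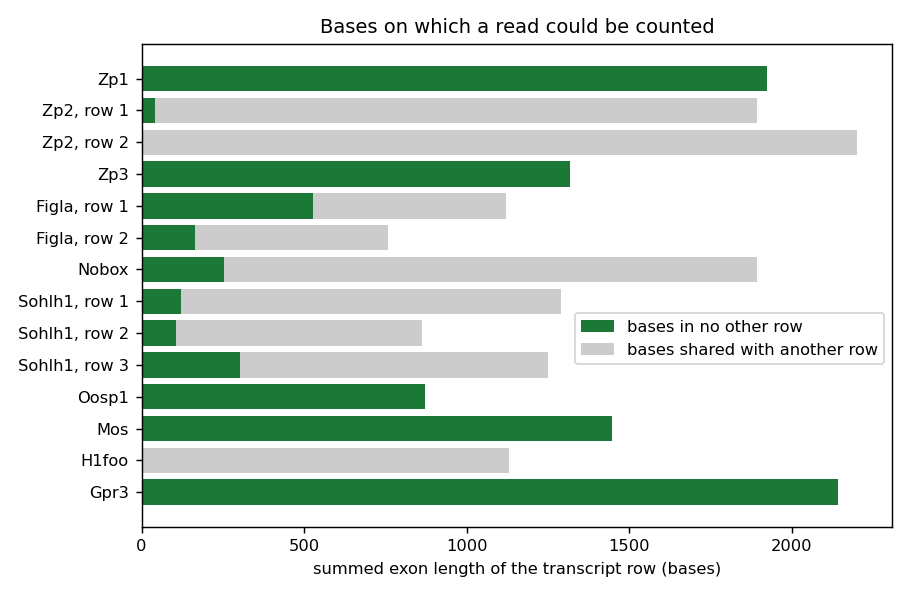
Summed exon length in bases of each deposited transcript row of the 10 genes, split into bases in no other row (green) and bases shared with another row (grey). Zp1, Zp3, Oosp1, Mos and Gpr3 are green throughout, and H1foo and the second row of Zp2 have no green bases.

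All 3 zona genes are secreted coat proteins, and the 2 that could be counted had most of their counts in the spermidine libraries. Zp1, which crosslinks the filaments of the coat, lies on chromosome 19 at 10914296 to 10920601, minus strand (positions as in the files, which match GRCm38). It had 50 and 339 counts with spermidine (63.5 and 197 CPM) and 0 and 2 counts in the controls (0 and 0.281 CPM). Both spermidine libraries lay above both controls. Pooled over libraries and scaled for depth, the ratio of spermidine to control was 1177 (95% counting interval 323.6 to 9751). A separate fit to the unpooled libraries gave a log2 fold change of 9.75. Its adjusted p was 0.00281 (quasi-likelihood test of edgeR, Benjamini-Hochberg over 7836 genes). Zp3, a filament protein of the coat on chromosome 5 at 135980105 to 135988624, plus strand, had 30 and 751 counts with spermidine (38.1 and 437 CPM) and 2 and 3 counts in the controls (0.278 and 0.421 CPM). The groups did not overlap, and the spermidine libraries differed from each other 11.5-fold in CPM. Its log2 fold change was 9.52 ± 1.44 (SE derived from the test statistic, adjusted p = 0.004 by the same edgeR test). Zp2, the coat protein that sperm bind, on chromosome 7, had 0 counts in all 4 libraries on its 42 own bases. A row without a symbol that shares its exons had 4 counts in spermidine replicate 1 and 0 in each other library on 344 bases of its own.

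Oosp1, which encodes a small secreted protein made by oocytes, lies on chromosome 19 at 11667460 to 11691051, minus strand. It had 5 and 136 counts with spermidine (6.35 and 79.1 CPM) and 0 and 1 in the controls (0 and 0.14 CPM). Spermidine replicate 2 carried nearly all of its counts. The pooled ratio was 853.1 (150.6 to 33930). The edgeR test, on the unpooled libraries, gave a log2 fold change of 9.03 and an adjusted p of 0.00747.

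Among the tested members, Zp3 and Oosp1 had the most unequal CPM between the spermidine libraries, both higher in replicate 2. The 250 bases before their starts are shown beside those of Gpr3, the tested gene that was not called. RefSeq's promoter table (GRCm38.p6) held 7 of the 10 genes, and Zp1, Zp2 and Mos are missing entries. Capitals mark the E-box CANNTG, a motif class of helix-loop-helix factors such as FIGLA, searched on both strands, with N any base. The windows run 5′ to 3′ along each gene, at chr5:135979855-135980104 (plus strand), chr19:11691052-11691301 (minus strand) and chr4:133212537-133212786 (minus strand).
Zp3: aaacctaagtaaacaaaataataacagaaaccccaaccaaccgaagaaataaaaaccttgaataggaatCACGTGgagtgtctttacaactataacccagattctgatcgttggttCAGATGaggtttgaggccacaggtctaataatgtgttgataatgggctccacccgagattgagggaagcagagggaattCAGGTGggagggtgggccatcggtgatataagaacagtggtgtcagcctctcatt
Oosp1: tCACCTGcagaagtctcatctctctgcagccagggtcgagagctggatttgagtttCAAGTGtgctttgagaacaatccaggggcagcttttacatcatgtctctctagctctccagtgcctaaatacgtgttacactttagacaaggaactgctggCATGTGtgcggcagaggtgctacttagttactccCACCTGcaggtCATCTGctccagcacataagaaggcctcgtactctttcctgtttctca
Gpr3: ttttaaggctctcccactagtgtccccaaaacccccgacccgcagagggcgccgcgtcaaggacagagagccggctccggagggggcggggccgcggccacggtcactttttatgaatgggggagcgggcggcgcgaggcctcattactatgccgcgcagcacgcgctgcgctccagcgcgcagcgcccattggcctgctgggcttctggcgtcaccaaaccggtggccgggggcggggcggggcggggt

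The Zp3 window held 3 E-boxes, starting 181, 134 and 55 bases before the gene's start, and the Oosp1 window held 5, starting 249, 194, 93, 59 and 48 bases before it. The Gpr3 window held 0. Of all 32851 windows of this length in the table, 66.2% held at least 1 E-box. The form CAGGTG, a subset of the E-boxes, read on either strand, stood once in Zp3 and at 2 places in Oosp1, and in 17.2% of all windows. Of the untested members, Figla, Nobox, Sohlh1 and H1foo each held CAGGTG as well. None of the 7 windows held TATAAA (12.4% of all windows), TAATTG (7.17%) or TAATTA (4.84%). These matches describe letters and not bound sites.

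The 2 genes of meiotic arrest differed from each other. Mos, the kinase that keeps the egg at metaphase, lies on chromosome 4 at 3870658 to 3872105, minus strand, and has a single exon. It had 28 and 56 counts with spermidine (35.6 and 32.6 CPM) and 0 counts in both controls. In contrast to Zp3 and Oosp1, its CPM was nearly equal in the spermidine libraries. Against a floor of 3 counts over the control group, its pooled counts were at least 169-fold higher with spermidine. The same edgeR test, on the unpooled libraries, gave an adjusted p of 0.00597. Gpr3, the receptor that keeps cyclic AMP high in the arrested oocyte, lies on chromosome 4 at 133209340 to 133212536, minus strand, and is also made outside the ovary. It had 8 and 9 counts with spermidine (10.2 and 5.24 CPM) and 16 and 20 in the controls (2.22 and 2.81 CPM). Its log2 fold change was 1.52 ± 0.84 (adjusted p = 0.208 by the same edgeR test), and 1.29 above the median of all tested genes. It was the only one of the 10 with more than 5 counts in the control group.

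**Figure D2:**
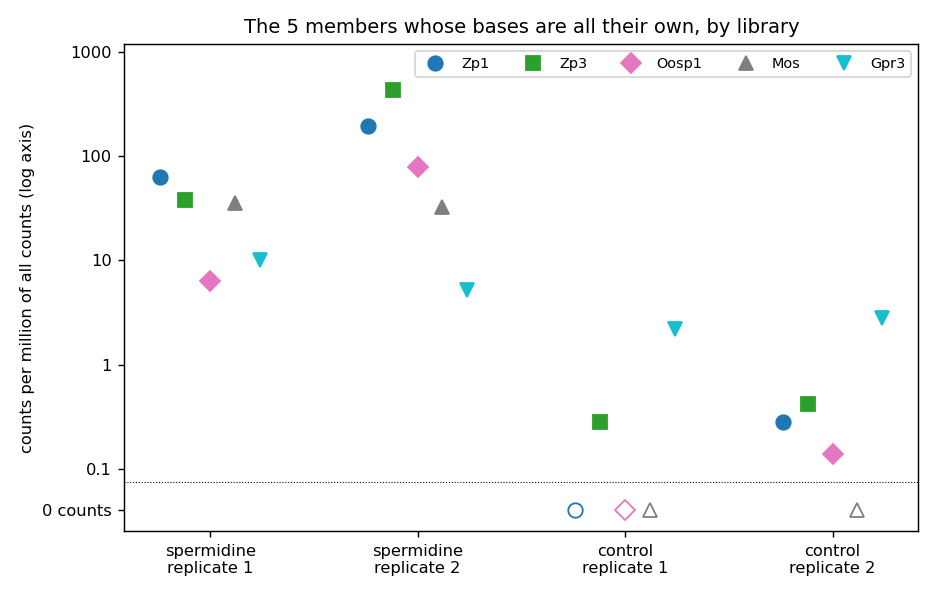
CPM over all counts (log axis, with 0 counts drawn open under the dotted line) for the 5 genes whose bases are all their own, 1 point per gene and library. Zp1, Zp3, Oosp1 and Mos lie between 6.35 and 437 CPM with spermidine and at or below 0.421 CPM in the controls, while Gpr3 lies between 2.22 and 10.2 CPM in all 4 libraries.

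The transcription factor genes and the linker histone gave almost no counts. Sohlh1 had 12 counts in spermidine replicate 1 (15.2 CPM) and 0 in the other 3 libraries, split as 8 and 4 over a pair of transcript rows. Figla had 1 count, also in spermidine replicate 1. Nobox and H1foo had 0 counts in all 4 libraries, and the rows without a symbol that share their exons had 0 as well. None of the 4 passed the low-count filter. With no filter, Sohlh1 had an edgeR adjusted p of 0.334, Benjamini-Hochberg adjusted over all genes with a count. Figla and Sohlh1 could thus be counted on part of their exons but were too low to be tested. Nobox was at 0 on its 254 own bases, 13.4% of its length.

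Of the 10 genes, 5 were tested, and Zp1, Zp3, Oosp1 and Mos rose with spermidine, while none fell. Over all 7836 tested genes, 28.8% were called, 24.8% higher and 3.99% lower, and 36.6% had both spermidine libraries above both controls, as all 5 tested members did. The 4 called genes had a CPM over the filter's 2.26 in both spermidine libraries and in neither control, so they were tested only through the group in which they were high, and their number does not support a difference beyond the single tests. In bulk RNA, a gene's level cannot be told apart from the number of cells that make it. Leaving out either control removed the calls of these 4 genes and those of all other genes, so the loss is not particular to them. With a control left out, the log2 fold changes of the 4 genes lay between 8.08 and 11.79. Without spermidine replicate 2, Oosp1 no longer passed the filter and the log2 fold change of Zp3 was 5.98 ± 0.55, and without spermidine replicate 1 it was 10.51 ± 0.42 with all 4 genes called. The log2 fold change of Zp1 was 9.75 ± 1.23 with all libraries. Leaving out spermidine replicate 1 gave 10.55 and leaving out replicate 2 gave 7.91. With control replicate 1 dropped it was 8.71, and with control replicate 2 dropped 11.79. That of Oosp1 was 9.03 ± 1.70 with all libraries, 10.04 without spermidine replicate 1, 8.08 without control replicate 1 and 10.33 without control replicate 2. That of Mos, 10.19 ± 1.56 with all libraries, ranged from 9.62 to 10.73. These fitted values depend on the default prior count of the edgeR fit and are no bounds.

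**Figure D3:**
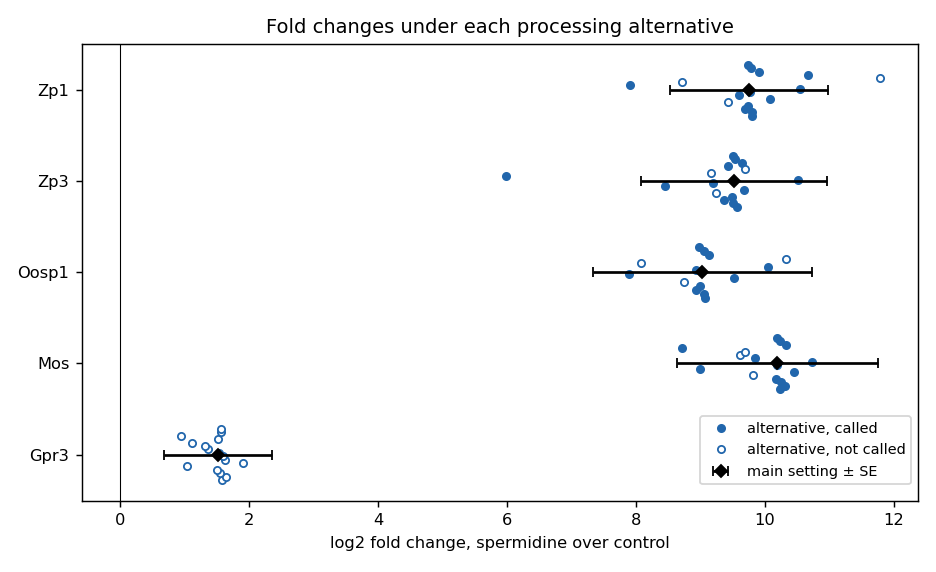
Log2 fold change of spermidine over control for the 5 tested genes in the main setting (black diamond, bar ± SE) and under each processing alternative (blue, filled where the adjusted p was under 0.05). Zp1, Zp3, Oosp1 and Mos stay at or above 5.98 and Gpr3 between 0.94 and 1.91. The edgeR values of Zp1, Oosp1 and Mos, with 2, 1 and 0 control counts, depend on the default prior count of the fit and are no bounds.

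Levels were set against each other within a library as counts per kilobase of own bases. In spermidine replicate 1 the order was Zp1 (26.0), Zp3 (22.8), Mos (19.3), Oosp1 (5.73) and Gpr3 (3.73). The neighbours Zp1, Zp3 and Mos were close there, with 50, 30 and 28 counts. In spermidine replicate 2 it was Zp3 (570), Zp1 (176), Oosp1 (156), Mos (38.7) and Gpr3 (4.20). Zp3 was thus level with Zp1 in one library and well above it in the other. In the controls Gpr3 was the highest, with 7.47 and 9.33 counts per kilobase, and no other member exceeded 2.28.

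The ratio of CPM in spermidine replicate 2 to replicate 1 separates the members further. CPM here is scaled to library totals alone, without the TMM factors of 1.30 (replicate 1) and 0.824 (replicate 2). It was 12.5 for Oosp1, 11.5 for Zp3 and 3.11 for Zp1, against 0.916 for Mos and 0.515 for Gpr3. Over the 1943 genes called higher, the median ratio was 0.582 (quartiles 0.22 and 1.58). At or above the ratio of Oosp1 lay 1.08% of those genes, at or above Zp3 1.34%, at or above Zp1 11.8% and at or above Mos 38.4%. Xist, the noncoding RNA that coats the silenced X chromosome in female cells, had 145 and 342 CPM with spermidine and 0.694 and 0.281 CPM in the controls. Like Zp1 and Zp3, it was higher in spermidine replicate 2 than in replicate 1.

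Genes that should be silent gave a measure of stray counts. Olfactory and vomeronasal receptor genes, which belong to sensory neurons, numbered 1280. Counts fell on 848 of them (66.2%) in spermidine replicate 1 and on 121 (9.45%) in replicate 2, against 21 and 61 in the control libraries. Their mean density was 3.18 and 0.174 counts per kilobase with spermidine and 0.0593 and 0.155 in the controls. At the density of spermidine replicate 1, Zp1 would have 6.13 counts, Zp3 4.19, Mos 4.61, Oosp1 2.78, Gpr3 6.82 and Sohlh1 1.69, against the 50, 30, 28, 5, 8 and 12 observed. Zp1, Zp3, Mos and Sohlh1 thus stood at 6.07 to 8.16 times the receptor mean in that library, while Oosp1 (1.80 times) and Gpr3 (1.17 times) were near it. Of the receptor genes, 0.859% or fewer reached the density of Zp1, Zp3, Mos or Sohlh1 there, 17.9% reached that of Oosp1 and 30.2% that of Gpr3. In spermidine replicate 2, no receptor gene reached Zp1, Zp3, Oosp1 or Mos, which stood at 223 to 3280 times the receptor mean, and Gpr3 at 24.2 times. With each library's mean receptor density subtracted from every gene, the 4 genes were still called (edgeR adjusted p 0.00176 to 0.0092, Benjamini-Hochberg). The log2 fold change of Gpr3 was then 0.94 ± 0.93. Over all genes, 1255 were called higher after this subtraction, against 1943 before, and the replicate ratios were not recomputed for them. Single receptor genes reached 33.4 counts per kilobase in spermidine replicate 1, so subtracting the mean does not remove all stray counts.

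**Figure D4:**
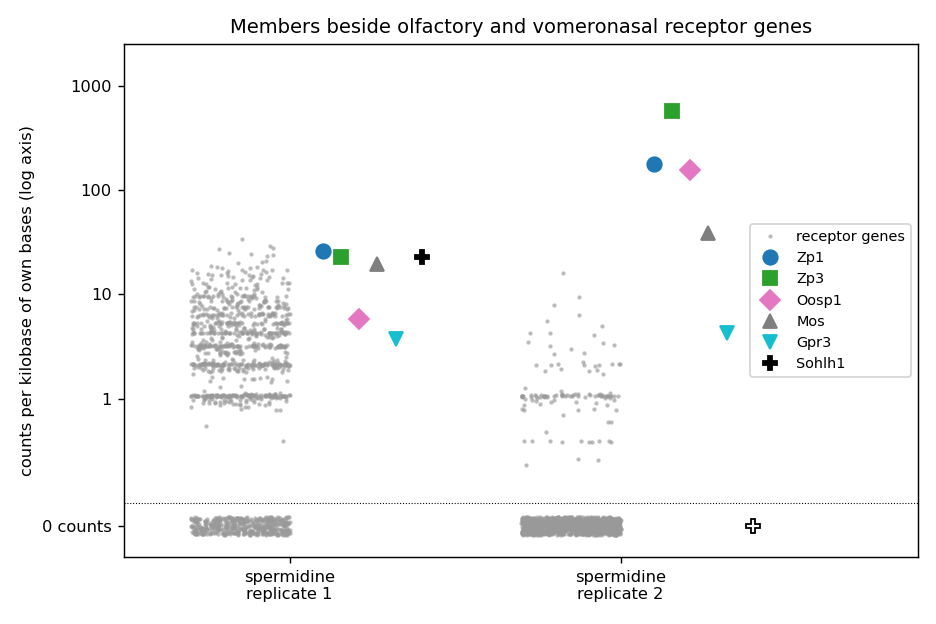
Counts per kilobase of own bases (log axis, 0 counts under the dotted line) in the 2 spermidine libraries, for 1280 olfactory and vomeronasal receptor genes (grey, 1 point per gene) and 6 members (coloured symbols). In replicate 1, Oosp1 (5.73) and Gpr3 (3.73) lie among the receptor genes, and in replicate 2 Zp1, Zp3, Oosp1 and Mos (38.7 to 570) lie above all of them.

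Related gene lists were read in the same fit, with the same limit from the filter, and their medians stand beside 0.23 for all tested genes. These lists too were chosen with earlier results of the data known, so their numbers of calls are description only. Of 15 further genes of oocyte transcription and chromatin, 5 were tested and 4 were higher, with a median log2 fold change of 7.87, or 7.50 with genes of 3 or fewer control counts set to that floor. They included Obox1 and Obox5, homeobox genes of oocytes and early embryos. Obox1 had 16 and 74 counts with spermidine and 0 and 0 in the controls, and Obox5 had 16 and 100 against 3 and 0 in the controls. Obox genes lie in a family of close copies, so their counts are uncertain. Dppa3, a maternal chromatin protein, had 9 and 263 counts with spermidine and 2 and 3 in the controls. Sohlh2, the partner of SOHLH1, had 10 and 6 on 2348 own bases against 0 and 0 in the controls. Per kilobase Sohlh2 was near the receptor mean in spermidine replicate 1 and above it in replicate 2.

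Of 11 other genes of the egg surface and of oocyte secretion, 3 were tested and 2 were higher (median 5.21). Bmp15, an oocyte growth factor, had 16 and 236 counts with spermidine and 1 and 2 in the controls, a pooled ratio of 508.2 (171.9 to 2481). Cd9, the egg tetraspanin needed for sperm fusion and made by many other cells, had 34 and 125 counts against 6 and 18 in the controls (log2 fold change 5.21 ± 0.86, edgeR Benjamini-Hochberg adjusted p = 0.00591). Gdf9, the growth factor related to Bmp15, was not tested, with 0 and 55 counts with spermidine and 0 and 1 in the controls. Oosp3, related to Oosp1, had 1 and 25 counts against 0 and 0 in the controls. Like Oosp1, Gdf9, Oosp3 and Dppa3 had nearly all counts in spermidine replicate 2. Oosp2, of the same family, had 8 and 0 counts with spermidine and 0 in both controls, and Obox3 had 9 and 0 counts and 0 in both controls. Their counts fell only in spermidine replicate 1, where 66.2% of receptor genes also had counts. Whether they were stray was not tested. The subcortical maternal complex and oocyte Nlrp genes were higher for 6 of 6 tested (median 8.83, or 7.86 at the floor), among them Padi6, an oocyte protein of the cytoplasmic lattices, with 36 and 1570 counts against 7 and 9 in the controls. Nlrp4f had 43 and 222 counts against 1 and 2 in the controls, and Nlrp2 had 49 and 64 against 1 and 6 in the controls. Nlrp genes too are a family of related copies.

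The wider machinery of meiotic arrest and resumption did not follow Zp3 and Oosp1. Of 25 genes, 14 were tested and 1 was higher, with a median of -0.73. The called gene was Nppc, the peptide by which granulosa cells keep the oocyte arrested, with 15 and 92 counts with spermidine and 2 and 0 in the controls. Cdk1, the kinase of mitosis and meiosis, had a log2 fold change of -0.79 ± 0.65 and its cyclin Ccnb1 one of -1.62 ± 0.64, without a call (edgeR adjusted p = 0.396 and 0.0923, Benjamini-Hochberg). Both genes also serve dividing cells and had at least 1949 counts in each control library. Gpr12, the receptor closest to Gpr3, had 10 and 0 counts with spermidine and 0 in both controls, all in the library with the most stray counts. Genes of maternal mRNA storage and translation gave 0 calls among 6 tested of 19 by edgeR, with 2 at an unadjusted p under 0.05, and 0 calls by DESeq2 and limma-voom, with a median of 0.84. Ybx2, a germ cell RNA-binding protein, had the smallest p, with 6 and 5 counts against 4 and 9 in the controls (2.34 ± 0.90, edgeR Benjamini-Hochberg adjusted p = 0.0818). Of genes of meiotic recombination and synapsis, 4 of 6 tested among 17 were higher (median 4.79): Smc1b, Syce1, Sycp3 and Ythdc2. Smc1b, a meiotic cohesin, had 43 and 34 counts against 5 and 0 in the controls, and Syce1, of the synaptonemal complex, 5 and 32 against 0 and 0 in the controls. Ythdc2, a meiotic entry factor, had 32 and 5 counts on 6896 own bases against 9 and 3 in the controls. Per kilobase it was near the receptor mean in spermidine replicate 1 and above it in replicate 2.

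Markers of other ovarian cells moved with the zona genes. Granulosa and theca genes were higher for 11 of 12 tested among 20 (median 8.96, or 8.51 at the floor). Counts of the whole list summed to 2670 and 6110 CPM with spermidine and 157 and 133 CPM in the controls. Most of the control sum was Cyp11a1, the tested gene that was not called (log2 fold change 0.55 ± 0.60). It had 297 and 80.3 CPM with spermidine and 130 and 107 CPM in the controls. Star gave 1650 CPM of the sum in spermidine replicate 1. Foxl2, a granulosa transcription factor, had 127 and 1257 counts against 5 and 7 in the controls, and Inhbb, an inhibin and activin subunit, 135 and 5498 against 17 and 23 in the controls. Star, a cholesterol carrier of steroid-making cells, had 1302 and 443 counts against 144 and 112 in the controls, the opposite order of spermidine libraries. Amh, Amhr2, Nr5a1, Hsd3b1 and Lhcgr were at 0 in all libraries, each with 152 own bases or fewer. Ovarian surface epithelium genes were higher for 5 of 5 tested among 10 (median 8.29, or 7.10 at the floor), with summed CPM of 179 and 208 against 0.278 and 0.842 in the controls, led by Krt8, Upk3b and Lgr5. Endothelial genes were higher for 4 of 4 tested among 8 (median 7.66, or 7.0 at the floor), with summed CPM of 146 and 122 against 1.39 and 0.701 in the controls, led by Tie1, Flt1 and Cldn5, while Pecam1, Cdh5, Tek and Emcn were at 0 with 54 own bases or fewer. Blood and mast cell genes were lower for 5 of 5 tested among 12 (median -3.79), with 380 and 139 summed CPM against 2510 and 1870 in the controls, among them the platelet integrin Itga2b, the leukocyte protein Plek and the blood transcription factor Gata2. Of the untested genes of that list, 3 had counts in spermidine replicate 1 alone: the mast cell proteases Mcpt4 and Tpsb2 had 11 counts each and the leukocyte phosphatase Ptprc had 3. That library also held the most stray counts on receptor genes. Gata1 had 0 and 0 counts with spermidine and 17 and 16 in the controls. Of 16 germline stem cell markers 5 were tested, with 3 higher and 1 lower (median 2.83): Ifitm3, Dppa3 and Pou5f1 were higher, and Tex19.1, which limits transposons in germ cells, was lower with 36 and 25 counts against 1955 and 1770 in the controls. The part of these cell markers, of the AY036118 share and of depth in the values of the egg coat genes was not tested.

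The 5 genes closest in pattern to the median profile of the tested members were named by Euclidean distance in log2 CPM over the 4 libraries, among 6218 tested genes with a symbol. They were Upk3b (distance 0.20), a membrane protein of mesothelium and urothelium, Phex (0.42), a peptidase best known in bone, Tshz2 (0.51), a zinc finger gene, Pcp4l1 (0.66) and Krt8 (0.67), an epithelial keratin. Upk3b had 31 and 150 counts with spermidine and 0 and 2 in the controls, and Phex had 30 and 102 against 0 and 2 in the controls. Upk3b and Krt8 stand on the surface epithelium list, and none of the 5 stands on an oocyte list. With 4 libraries the distance is a description only.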

How the data were processed

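RNA was measured by sequencing in 4 libraries, 2 of cells with spermidine and 2 of control cells. The deposited table holds raw counts per RefSeq transcript row, not normalised, per the file headers. HISAT2, DESeq2 and the build mm9 are named in the submitters' processing notes with no role or version, and no source used here names the counting program. Of 106519 rows, 86040 (80.8%) matched a symbol in RefSeq's GRCm38.p6 gene table, and 88.5% of these fell within that table's GRCm38 gene bounds, so positions are given as GRCm38. The deposited length column gives bases per row and was used only to set own bases beside full length. The members and gene lists were chosen with earlier results of these data known.

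Rows were summed per symbol. The main test was the quasi-likelihood test of edgeR 4.0.16 in R 4.3.3 (glmQLFit with legacy=FALSE, glmQLFTest), with group as the only term, after filterByExpr (minimum count 10, minimum total 15) and TMM scaling. The call threshold was an adjusted p of 0.05 (Benjamini-Hochberg over all tested genes). Each edgeR SE is the absolute log2 fold change divided by the square root of the F statistic. It is derived from the test and is not a separate estimate of error. The spermidine libraries had TMM factors of 1.30 and 0.824, the controls 0.961 and 0.973. Log2 CPM used a prior count of 2, and the fitted log2 fold changes used the default prior count of edgeR instead. The procedure was also run on simulated counts. These held no changes as large as those of the called members and no separate stray counts, and no result here rests on them. Ratios of pooled counts use exact 95% intervals. All members were named. From each of the 11 other lists the rule named up to 3 called genes with the highest mean log2 CPM in spermidine, or else the smallest p, and further list members are examples picked with their values known. The alternatives were other scalings, other filters, DESeq2 1.42.0, limma-voom (limma 3.58.1), a replicate block, each library left out with the filter run again, controls thinned to the mean spermidine total, receptor background subtracted, AY036118 left out and the deposited rows. The legacy edgeR test was added after the data were seen.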

Additional observations from a re-analysis of the deposited data

How the results depend on the processing

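Zp1, Zp3, Oosp1 and Mos kept a log2 fold change above 0 in every alternative in which they were tested, and so did Gpr3, which was never called. With at most 5 counts each in the control group, those 4 could hardly change sign in any setting. Their sign is therefore no test of robustness. The number of genes called, 2256 in the main setting, fell to 0 in edgeR when no genes were filtered out (4255 had p under 0.05 unadjusted). It was 275 when each library had to reach 1 CPM, 1074 with controls thinned and 1491 with the receptor background subtracted. DESeq2 gave 2194 and limma-voom 1954 in the main setting's filter. With a library left out it ranged from 0 to 5303: 849 and 5303 when spermidine replicate 1 or 2 was dropped, and 0 when either control was (1117 and 1411 genes with p under 0.05 unadjusted, for control replicate 1 and 2). The number of members called higher, 4, was 0 with no filter (4 had p under 0.05 unadjusted) and 0 with 1 CPM in all libraries, where only Gpr3 was tested (1 had p under 0.05 unadjusted). It was 3 of 3 tested with controls thinned, where Oosp1 and Gpr3 no longer passed the filter, and ranged from 0 to 4 with a library left out. Such fits take the lone library's spread from the other group. The cause of these changes was not tested, beyond the filters' own choice of genes. Upper-quartile factors moved the median of all tested genes to 0.37, against 0.23 with TMM. Against edgeR, limma-voom called 5 of 6 tested subcortical maternal complex and Nlrp genes and 3 of 6 recombination genes, and it and DESeq2 each called 10 of 12 granulosa and theca genes. The replicate number as a block gave 1775 genes and 4 members called. Deviations from the group mean in spermidine replicate 1 and control replicate 1 had a correlation of -0.03 over genes. With 2 libraries in each group, this cannot tell whether the samples were paired. At 787600 counts in spermidine replicate 1, a gene needs 3.81 CPM to reach 3 counts.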
